A study of Mus musculus with 2 samples.

Results

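Collagen-low non-cycling Ptprc-negative tumour cells are a class of cells read from mouse MB49 tumours and chosen by limits on a few genes. Kept cells held 200 or more genes and no more than 20% of their UMIs from mitochondrial genes (a UMI, or unique molecular identifier, stands for 1 captured mRNA molecule). A kept cell belonged to the class when it had 0 UMIs of Ptprc, the gene of the leukocyte surface protein CD45, and at least 10 UMIs of Krt8, Krt18 and Col1a1 together. It also had at most 1 UMI of Cd3e, Cd3g and Cd3d, at most 1 UMI of C1qa, C1qb and C1qc, fewer than 5 UMIs of 7 cell division genes (Anln, Birc5, Rrm2, Hmmr, Cenpf, Cdc20 and Cdk1), and less than 0.75% of its UMIs from Col1a1. The limits found 888 cells among 15259 kept and 15762 deposited cells, 424 in the library labelled Lcn2-ko and 464 in the wt library.

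The study made 2 single-cell RNA libraries with the BD Rhapsody system, a microwell and bead method. In the library labelled Lcn2-ko, the tumour grew in a lethally irradiated female mouse that had been given male Lcn2-KO bone marrow. In the wt library, the host was treated alike and given male WT marrow. Strain, age, time of harvest and any pooling of animals are not given in the sources used here. MB49 is a bladder carcinoma cell line from a male mouse. By this design the deletion lay in blood cells of donor origin, and the tumour cells carried none. Live CD45+ cells were sorted after enzymatic digestion at 37°C for 45 min, so cells without Ptprc UMIs are ones that the gate was meant to leave out, and any share of them depends on that gate. With 1 library per label, the differences below have no replicates behind them and none was tested. Intervals are at the 95% level and cover counting error only.

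Keratins 8 and 18 form the intermediate filaments of simple epithelia, while Col1a1 encodes a chain of fibrillar collagen that mesenchymal cells secrete. Carcinoma cells that carry both can lie between epithelial and mesenchymal states. The limits count keratins and Col1a1 together, so a cell of the class need not carry both. Carcinoma cells can answer interferon gamma from T cells and natural killer cells, which raises chemokines, guanylate-binding proteins and antigen presentation genes. At low oxygen they raise glucose transport and glycolysis through hypoxia-inducible factors.

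The 3 promoters that follow belong to interferon-inducible genes that were among the 12 with the highest ratio of the library labelled Lcn2-ko to the wt library in the class, and they are shown because each held a match to an interferon-stimulated response element. Each is the 250 bases before the RefSeq start on build GRCm38.p6. Capitals mark matches to the response element, searched as GAAA, any 2 bases and GAAA, or to the gamma-activated site TTCNNNGAA, on both strands. The Gbp2 promoter lies at chr3:142620413-142620662 on the plus strand, the Igtp promoter at chr11:58199306-58199555 on the plus strand and the Rsad2 promoter at chr12:26456453-26456702 on the minus strand.
Gbp2: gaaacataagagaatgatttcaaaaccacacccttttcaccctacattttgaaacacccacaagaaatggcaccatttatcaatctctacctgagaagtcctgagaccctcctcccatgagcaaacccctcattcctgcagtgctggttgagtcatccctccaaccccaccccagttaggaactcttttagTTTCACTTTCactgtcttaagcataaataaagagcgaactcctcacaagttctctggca
Igtp: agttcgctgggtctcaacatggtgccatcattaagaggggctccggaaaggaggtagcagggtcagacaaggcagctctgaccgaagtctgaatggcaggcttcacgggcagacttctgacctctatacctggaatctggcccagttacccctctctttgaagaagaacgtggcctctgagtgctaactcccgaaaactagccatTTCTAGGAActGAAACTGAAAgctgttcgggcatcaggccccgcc
Rsad2: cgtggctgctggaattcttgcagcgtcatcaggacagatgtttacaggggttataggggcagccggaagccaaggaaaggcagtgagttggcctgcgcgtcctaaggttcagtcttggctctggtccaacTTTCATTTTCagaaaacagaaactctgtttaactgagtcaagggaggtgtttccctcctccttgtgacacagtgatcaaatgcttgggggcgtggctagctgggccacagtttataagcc
The response element match began at -59 from the start in Gbp2, at -34 in Igtp and at -120 in Rsad2, and Igtp also held a gamma-activated site match at -45. Of the 12 genes with the highest ratios, 11 had a promoter in the RefSeq table and 3 of these held a response element match, against 0 of the 10 found there among the 12 lowest. A gamma-activated site match was held by 1 of the 11 (Igtp) and by 1 of the 10 (Dnajc7). Ubd and Cxcl9, 2 of the 3 genes that stood 2-fold or more above wt, held neither match. Over all 32817 promoters of the table, in the window from 250 bases before to 50 after the start, 3.43% held a response element match and 8.29% a gamma-activated site match. A match describes the letters only.

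The class made up 5.62% of kept cells in the library labelled Lcn2-ko (exact Clopper-Pearson interval 5.11 to 6.16) and 6.02% in the wt library (5.50 to 6.57). The difference of -0.398 percentage points had a Newcombe interval of -1.14 to 0.345 that covers the counting of cells only. With a Col1a1 limit of 0.5% in place of 0.75% the order turned, at 3.54% in the library labelled Lcn2-ko and 3.45% in the wt library. Cells that met the limits on Ptprc, on keratins and collagen and on T cell and C1q genes, whatever their collagen level or division genes, made up 14.8% of kept cells in the library labelled Lcn2-ko and 17.1% in the wt library, a difference of -2.30 points (-3.46 to -1.14). Within these tumour cells the class was 37.9% of 1120 cells in the library labelled Lcn2-ko and 35.1% of 1322 cells in the wt library. The others were non-cycling cells with more Col1a1, here called collagen-high, and cells with at least 5 UMIs of the division genes, here called cycling. There were 335 collagen-high and 361 cycling cells in the library labelled Lcn2-ko, against 391 and 467 in the wt library.

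The limit on Col1a1 fell within a continuous range. In the library labelled Lcn2-ko the class reached 0.747% and the lowest collagen-high cell stood at 0.753%. Within 0.1 percentage point of the limit there were 54 cells inside and 54 outside in the library labelled Lcn2-ko, and 85 inside and 61 outside in the wt library. At the limit on division genes, 11 cells of the class with 4 UMIs stood against 10 otherwise alike cells with 5 in the library labelled Lcn2-ko, and 16 against 15 in the wt library. At the limit on keratin and collagen genes, 8 cells with 10 UMIs stood against 12 otherwise alike cells with 9 in the library labelled Lcn2-ko, and 10 against 10 in the wt library. By its limits the class is thus a range of collagen level, and whether its cells form a separate type was not tested.

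Below, the libraries are called Lcn2-ko and wt after their labels. The cells were read at a median of 7656 UMIs and 2759.5 genes in the library labelled Lcn2-ko and of 7278 UMIs and 2710.5 genes in the wt library, with a median mitochondrial share of 4.19% in Lcn2-ko and 4.35% in wt. Summed over cells, the class held 3439238 UMIs in Lcn2-ko and 3676030 UMIs in wt. The libraries shared 4 cell barcodes, and 0 of them belonged to the class. Collagen-high cells had a median of 7130 UMIs in Lcn2-ko and 6764 UMIs in wt and cycling cells of 13012 in Lcn2-ko and 13084 in wt. Levels are given as CPM, the UMIs of a gene per 1000000 UMIs summed over a class in a library.

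The 4 genes named as markers of these cells were found in nearly all of them or in part. Sox9, a transcription factor of progenitor and cartilage cells, stood at 2599 CPM in Lcn2-ko and 3041 CPM in wt, against 2458 for Lcn2-ko and 2787 for wt in collagen-high cells, 1496 for Lcn2-ko and 1687 for wt in cycling cells and 365 for Lcn2-ko and 352 for wt in the other kept cells. Tm4sf1, a surface protein of migrating and invading cells, stood at 1881 CPM in Lcn2-ko and 1842 CPM in wt, against 1639.97 for Lcn2-ko and 1526 for wt in collagen-high cells, 1430.5 for Lcn2-ko and 1407 for wt in cycling cells and 273 for Lcn2-ko and 269 for wt in the other kept cells. Both genes were thus shared by the 3 tumour classes.
Nos2, inducible nitric oxide synthase, stood at 1032 CPM for Lcn2-ko and 673 CPM for wt in the class, 577 for Lcn2-ko and 336 for wt in collagen-high cells, 499.5 for Lcn2-ko and 329 for wt in cycling cells and 161 for Lcn2-ko and 90.5 for wt in the other kept cells. Ereg, the epidermal growth factor receptor ligand epiregulin, stood at 148 CPM in Lcn2-ko and 132 CPM in wt, against 56.97 for Lcn2-ko and 49.98 for wt in collagen-high cells, 65.1 for Lcn2-ko and 48.5 for wt in cycling cells and 16.5 for Lcn2-ko and 11.98 for wt in the other kept cells. Nos2 and Ereg were higher in the class than in each of the others, in each library.

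**Figure D1:**
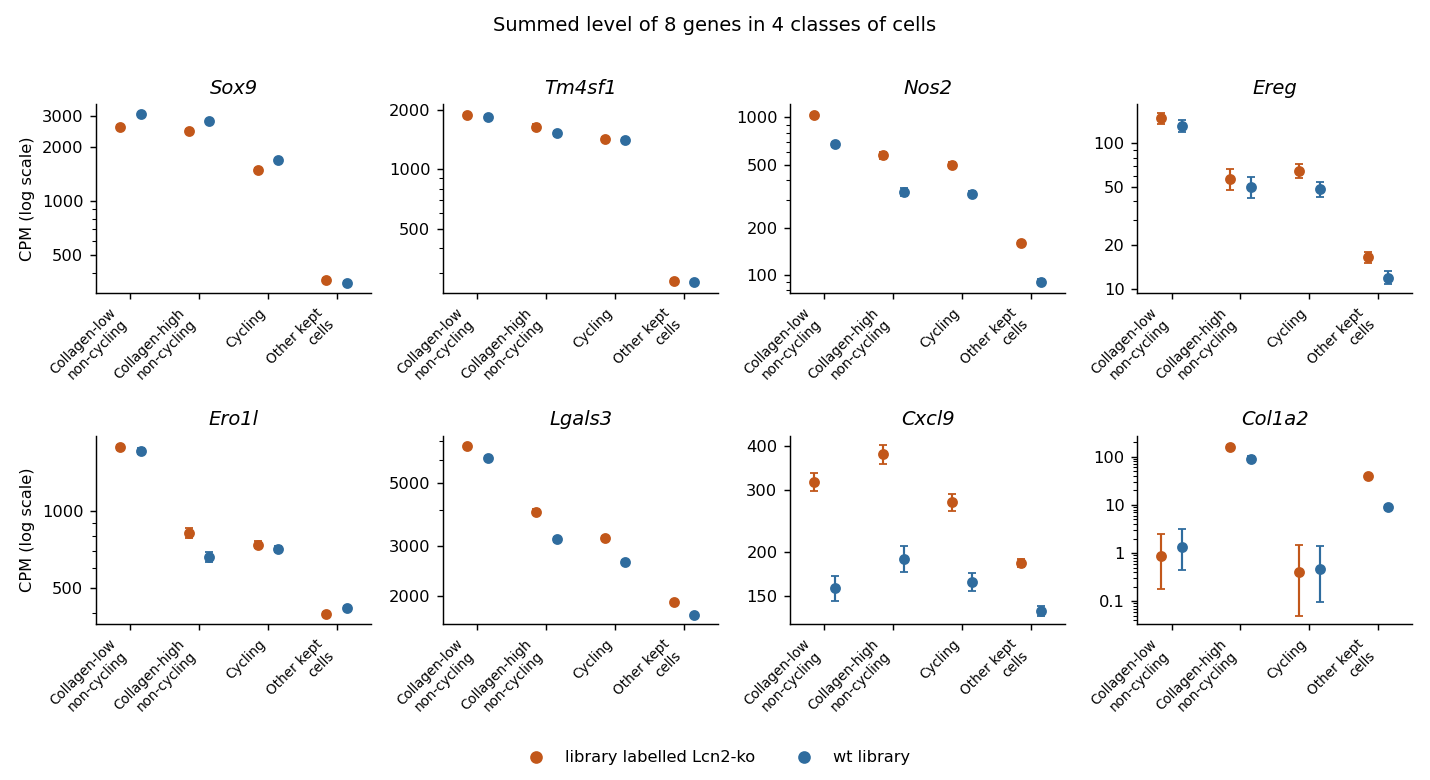
Level (CPM, log scale) of 8 genes in 4 classes of cells, with the library labelled Lcn2-ko left of the wt library in each class and exact Poisson intervals as bars. Sox9 and Tm4sf1 are near each other in collagen-low and collagen-high cells, and Nos2, Ereg, Ero1l and Lgals3 are highest in the collagen-low cells.

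After each cell was thinned to 2000 UMIs, which left out 3 shallower cells of the class in Lcn2-ko and 10 in wt, at least 1 Sox9 UMI was found in 91.4% of cells in Lcn2-ko and 90.1% in wt, against 14.5% of the other kept cells in Lcn2-ko and 13.6% in wt. For Tm4sf1 the shares were 79.6% for Lcn2-ko and 78.2% for wt in the class, against 11.5% of the other kept cells in Lcn2-ko and 10.4% in wt. Nos2 was found in 46.1% of the class in Lcn2-ko and 37.2% in wt and in 8.78% of the other kept cells in Lcn2-ko and 6.35% in wt, and Ereg in 17.6% for Lcn2-ko and 13.4% for wt in the class, against 1.46% of the other kept cells in Lcn2-ko and 1.16% in wt. Each of these shares lay above that in the other kept cells of the same library. The unthinned shares in the class were 96.2% in Lcn2-ko and 96.98% in wt for Sox9, 94.6% in Lcn2-ko and 92.9% in wt for Tm4sf1, 63.4% in Lcn2-ko and 52.8% in wt for Nos2 and 35.6% in Lcn2-ko and 28.02% in wt for Ereg.

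Leukocyte genes were low in the class. Genes of leukocytes in general stood at a few percent of their level in the other kept cells, with Cd52 at 1.88% in Lcn2-ko and 2.04% in wt, Tyrobp at 3.04% in Lcn2-ko and 3.82% in wt and Coro1a at 5.74% in Lcn2-ko and 4.81% in wt. MHC class II genes, which macrophages, dendritic cells and interferon-treated cells express, stood nearer to it, with Cd74 at 25.2% in Lcn2-ko and 15.1% in wt and H2-Eb1 at 25.4% in Lcn2-ko and 14.03% in wt. T cell markers summed to 78.8 CPM for Lcn2-ko and 62.02 CPM for wt in the class against 2582 CPM for Lcn2-ko and 2196 CPM for wt in the other kept cells, and macrophage markers to 82.9 CPM in Lcn2-ko and 87.1 CPM in wt against 2037 CPM for Lcn2-ko and 1908 CPM for wt in the other kept cells. The T cell markers include the Cd3 genes and the macrophage markers the C1q genes. The limits capped these genes, so both sums are partly fixed by the choice of cells. Dendritic cell markers summed to 682 CPM in Lcn2-ko and 499 CPM in wt, of which H2-Ab1 was 654 CPM in Lcn2-ko and 473 CPM in wt.
Neutrophil markers summed to 29.4 CPM in Lcn2-ko and 39.2 CPM in wt, NK cell markers to 6.11 CPM in Lcn2-ko and 7.34 CPM in wt, B cell markers to 0.291 CPM in Lcn2-ko and 1.09 CPM in wt, and mast cell and basophil markers to 9.60 CPM in Lcn2-ko and 7.89 CPM in wt. Endothelial markers summed to 30.5 CPM in Lcn2-ko and 4.35 CPM in wt, and 1 cell of the library labelled Lcn2-ko accounted for 30 of the 35 Cldn5 UMIs there. Endothelial markers summed to 53.7 CPM for Lcn2-ko and 45.02 CPM for wt in the other kept cells. Pericyte and smooth muscle markers summed to 50.9 CPM for Lcn2-ko and 56.3 CPM for wt in the class against 9.85 CPM for Lcn2-ko and 8.36 CPM for wt in the other kept cells, and so were higher in the class, with 40 of the 42 Rgs5 UMIs of the wt library in 1 cell. A Cd3 UMI was found in 109 cells of the class in Lcn2-ko and 102 cells in wt and a C1q UMI in 65 in Lcn2-ko and 77 in wt, each at the single UMI that the limits allowed.

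The label of a tumour cell was set against lineage genes. Epcam, an epithelial adhesion gene, had 0 UMIs in either library of the class, a count that allows up to 3 UMIs, and Cdh1 (E-cadherin) stood at 5.52 CPM in Lcn2-ko and 10.1 CPM in wt. Of 8 urothelial markers, Upk1a, Upk3a and Krt5 had 0 UMIs in both libraries, and Krt14 accounted for 36.3 of the 42.2 CPM that the markers summed to in the library labelled Lcn2-ko and 33.5 of 37.5 CPM in the wt library. Vim, the intermediate filament of mesenchymal cells, stood at 4185 CPM in Lcn2-ko and 3847 CPM in wt. Of 7 fibroblast markers, which summed to 369 CPM for Lcn2-ko and 381 CPM for wt in the class against 44.6 CPM for Lcn2-ko and 41.8 CPM for wt in the other kept cells, Lum and Fap had 0 UMIs in both libraries, while Dcn, a matrix proteoglycan, stood at 315 CPM in Lcn2-ko and 316 CPM in wt and Pdgfra at 46.5 CPM in Lcn2-ko and 50.6 CPM in wt. Fibroblast, pericyte and urothelial markers were thus higher in the class than in the other kept cells, where the urothelial ones summed to 13.9 CPM in Lcn2-ko and 11.6 CPM in wt. In collagen-high cells fibroblast markers summed to 409 CPM in Lcn2-ko and 331 CPM in wt. Pericyte and smooth muscle markers summed there to 64.6 CPM in Lcn2-ko and 67.2 CPM in wt. Urothelial markers there summed to 53.7 CPM in Lcn2-ko and 44.7 CPM in wt, so these markers were not particular to the class. Cycling cells had lower fibroblast and pericyte sums than the class but higher urothelial ones, at 53.2 CPM in Lcn2-ko and 41.9 CPM in wt. The part of cells of those types in the class was not tested. Krt8 stood at 322 CPM in Lcn2-ko and 344 CPM in wt and Krt18 at 562 CPM in Lcn2-ko and 604 CPM in wt, and both are among the genes that chose the cells. At least 1 UMI of 4 Y-linked genes was found in 37.5% of cells of the class in Lcn2-ko and 45.3% in wt, against 45.2% of the other kept cells in Lcn2-ko and 47.9% in wt. Xist, which marks cells of the female host, was found in 2.36% of cells of the class in Lcn2-ko and 1.94% in wt, against 11.9% of the other kept cells in Lcn2-ko and 9.83% in wt. These shares were not thinned, and the other kept cells were shallower, at a median of 3203 UMIs in Lcn2-ko and 3131 UMIs in wt. The Y-linked genes summed to 97.7 CPM for Lcn2-ko and 126 CPM for wt in the class. In the other kept cells they summed to 176 CPM in Lcn2-ko and 190 CPM in wt. Xist stood at 3.78 CPM for Lcn2-ko and 5.98 CPM for wt in the class. Its level in the other kept cells was 60.0 CPM in Lcn2-ko and 48.9 CPM in wt. MB49 cells and donor blood cells are both of male origin.

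The most abundant genes, leaving out ribosomal protein and mitochondrial ones, included the cytoskeletal actins Actg1 and Actb, the growth-associated protein Tpt1 and the translation factor Eef1a1, which have near-identical copies among which reads may be divided. UMIs are read at the 3′ end of each mRNA, so gene length does not enter a level, though capture can differ between genes. Also among the most abundant were Lgals3 (galectin-3, a sugar-binding protein) at 6724 CPM in Lcn2-ko and 6102 CPM in wt and Fth1 (ferritin heavy chain, which stores iron) at 7535 CPM in Lcn2-ko and 5924 CPM in wt. Fos stood at 5197 CPM in Lcn2-ko and 4914 CPM in wt, Fosb at 5599 CPM in Lcn2-ko and 4457 CPM in wt and Jund at 4667 CPM in Lcn2-ko and 4268 CPM in wt. These are immediate-early genes that tissue digestion at warm temperature is known to raise, and how far it did so here was not tested.

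Between libraries the class differed little. Genes counted as measured, 3424 in all, reached 50 CPM in 1 library or the other and 50 UMIs in sum. Of these, 3 genes (0.0876%) in the library labelled Lcn2-ko stood 2-fold or more above wt and 8 genes (0.234%) stood 2-fold or more below it. At 1.5-fold the counts were 16 genes (0.467%) above and 31 genes (0.905%) below. The median log2 ratio of the measured genes was -0.03. The 3 genes that stood 2-fold above were the ubiquitin-like protein gene Ubd, the immunity-related GTPase gene Iigp1 and the chemokine gene Cxcl9, and each is known to be induced by interferon gamma.

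**Figure D2:**
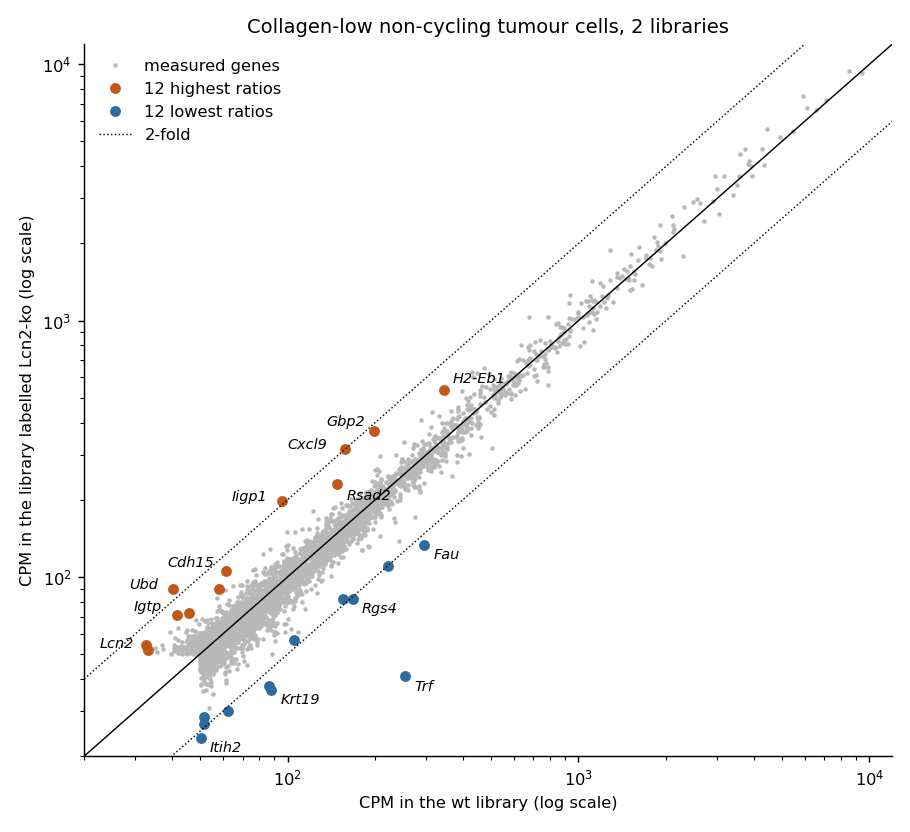
Level of 3424 genes in collagen-low non-cycling tumour cells (CPM, log scales), the library labelled Lcn2-ko on the vertical axis against the wt library on the horizontal axis, with the 12 highest and 12 lowest ratios in colour. Most genes follow the line of equal level, and Cxcl9, Iigp1 and Ubd lie above and Trf, Krt19 and Fau below the 2-fold lines.

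Cxcl9, which draws CXCR3-bearing T cells and lies at chr5:92321347-92328079 (mm10, minus strand), had 1087 UMIs in the library labelled Lcn2-ko (exact Poisson interval 1023 to 1154) and 579 in the wt library (533 to 628), or 316 CPM in Lcn2-ko and 158 CPM in wt. The log2 ratio had an exact conditional interval of 0.86 to 1.15. Cells with a Cxcl9 UMI numbered 154 in Lcn2-ko and 99 in wt, and the 5 cells with the most held 27.1% of the UMIs in Lcn2-ko and 27.5% in wt. After thinning, 21.6% of cells in Lcn2-ko and 13.4% in wt had a Cxcl9 UMI, so the library labelled Lcn2-ko was the higher in both the share of cells and the summed level.
In collagen-high cells of the same libraries Cxcl9 stood at 379.8 CPM in Lcn2-ko and 191 CPM in wt, in cycling cells at 277 CPM in Lcn2-ko and 164 CPM in wt and in the other kept cells at 186 CPM in Lcn2-ko and 136 CPM in wt.

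Ubd (chr17:37193892-37196095, plus strand) stood at 89.6 CPM in Lcn2-ko and 40.3 CPM in wt, a log2 ratio of 1.15 (0.87 to 1.45), and at 14.6 CPM for Lcn2-ko and 5.63 CPM for wt in the other kept cells. Iigp1 stood at 197 CPM in Lcn2-ko and 95.5 CPM in wt, a log2 ratio of 1.05 (0.86 to 1.24), beside ratios of 0.36 in collagen-high and 0.09 in cycling cells, a gap between classes that was not tested. Gbp2, a guanylate-binding protein gene of antimicrobial defence, stood at 370.1 CPM in Lcn2-ko and 198 CPM in wt, a log2 ratio of 0.90 (0.77 to 1.04), with 1273 UMIs in 231 cells for Lcn2-ko and 727 UMIs in 208 cells for wt. Gbp genes are alike in sequence, and reads may be divided among them. Igtp, another immunity-related GTPase gene, had 245 UMIs in Lcn2-ko and 153 UMIs in wt and a log2 ratio of 0.78 (0.48 to 1.08).
Rsad2, the antiviral protein viperin, stood at 229.99 CPM in Lcn2-ko and 148 CPM in wt with a log2 ratio of 0.64 (0.48 to 0.80), but 5 cells held 52.8% of its UMIs in Lcn2-ko and 27.4% in wt, and after thinning 11.9% of cells in Lcn2-ko and 13.9% in wt had a UMI. For Rsad2 the share of cells was thus not the higher in the library labelled Lcn2-ko. H2-Eb1, an MHC class II chain that presents peptides to CD4 T cells, stood at 534 CPM in Lcn2-ko and 344 CPM in wt with a log2 ratio of 0.63 (0.53 to 0.74). In the other kept cells H2-Eb1 stood at 2098 CPM in Lcn2-ko and 2452 CPM in wt, so there the library labelled Lcn2-ko was the lower.

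The others among the 12 highest were the cadherin gene Cdh15 (log2 ratio 0.79), Lcn2 (0.74), the cytokine gene Il6 (0.65), the chemokine scavenger receptor gene Ackr3 (0.65) and the LIM-domain protein gene Lmo4 (0.64). Lcn2 (chr2:32384633-32388252, minus strand), lipocalin 2, binds bacterial iron carriers and is the gene that the genotype label names. It had 187 UMIs in 81 cells of the class in Lcn2-ko and 120 UMIs in 58 cells in wt, or 54.4 CPM in Lcn2-ko and 32.6 CPM in wt, a log2 ratio of 0.74 (0.40 to 1.08). In the other kept cells, which include the donor blood cells, Lcn2 stood at 10.9 CPM in Lcn2-ko and 16.02 CPM in wt. Whether its 3′ UMIs lie inside the deleted part of the gene is not given in the sources used here, so this level does not check the label. Il6 had 248 UMIs in Lcn2-ko and 169 UMIs in wt, in 40 cells each, and 1 cell of the library labelled Lcn2-ko had 103 of them. Where both T cell and C1q sums had to be 0, the Il6 ratio was -0.79.

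The lowest ratio was that of Trf (chr9:103204001-103230444, minus strand), transferrin, the iron carrier of serum, with 141 UMIs in Lcn2-ko and 934 UMIs in wt, or 41.00 CPM in Lcn2-ko and 254 CPM in wt and a log2 ratio of -2.63 (-2.90 to -2.37). It rested on few cells, since 30 cells in Lcn2-ko and 40 cells in wt had a UMI and 5 cells held 63.8% of the UMIs in Lcn2-ko and 60.7% in wt. After thinning, 4.28% of cells in Lcn2-ko and 4.63% in wt had a Trf UMI.
Krt19 (chr11:100140810-100148665, minus strand), a keratin of simple epithelia, stood at 36.3 CPM in Lcn2-ko and 87.9 CPM in wt with a log2 ratio of -1.27 (-1.58 to -0.97), and here 70 cells in Lcn2-ko and 107 cells in wt had a UMI and 5 cells held 20.8% in Lcn2-ko and 21.98% in wt. Tnc, the matrix protein tenascin C, stood at 37.5 CPM in Lcn2-ko and 86.2 CPM in wt, Rgs4, a regulator of G-protein signalling, at 82.3 CPM in Lcn2-ko and 168 CPM in wt, and Itpkc, a kinase of inositol trisphosphate, at 110.5 CPM in Lcn2-ko and 221 CPM in wt. Itih2, an inter-alpha-trypsin inhibitor heavy chain, had 81 UMIs in Lcn2-ko and 185 UMIs in wt (log2 ratio -1.10) and Arhgap29, a GTPase-activating protein, 103 in Lcn2-ko and 230 in wt (-1.06). Tnc UMIs lay in 53 cells in Lcn2-ko and 77 cells in wt, and 5 cells held 34.9% in Lcn2-ko and 40.7% in wt. Itih2 UMIs lay in 29 cells in Lcn2-ko and 41 cells in wt, and 5 cells held 43.2% in Lcn2-ko and 56.2% in wt. With the mean of CPM per cell the log2 ratio of Tnc was -0.81. Fau, which encodes a ribosomal protein fused to a ubiquitin-like domain, had a log2 ratio of -1.15, beside -0.93 in collagen-high cells, -1.02 in cycling cells and -1.01 in the other kept cells, so its gap ran through all classes.
The rest of the 12 lowest were Dnajc7 (log2 ratio -0.94), Sprr1b (-0.92), Kcnn4 (-0.88) and Ap1s1 (-0.85).

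Genes of the interferon gamma response stood mostly higher in the library labelled Lcn2-ko. Of 15 measured members, 13 had a log2 ratio above 0, 4 stood 1.5-fold or more above wt and 0 as far below, with a median log2 ratio of 0.37 against -0.03 over all measured genes. Of all 3424 measured genes, 1468 were above 0 and 0.467% stood 1.5-fold or more above wt, which is the background for this and the next lists. Beside Iigp1, Cxcl9, Gbp2 and Igtp, the GTPase gene Irgm2 stood at 106 CPM in Lcn2-ko and 75.9 CPM in wt (log2 ratio 0.48) and Gbp7 at 154 CPM in Lcn2-ko and 112 CPM in wt (0.45). The 2 members below 0 were the chains of the interferon gamma receptor itself, Ifngr1 (-0.16) and Ifngr2 (-0.18).
The median of the same genes was 0.28 in collagen-high cells, 0.27 in cycling cells and 0.16 in the other kept cells, all from the same pair of libraries.

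The 16 measured genes of MHC class I presentation had 14 ratios above 0 and a median of 0.16, with 0 members 1.5-fold apart. H2-K1 stood at 4479 CPM in Lcn2-ko and 3599.5 CPM in wt (log2 ratio 0.32), H2-D1 at 4655 CPM in Lcn2-ko and 3726 CPM in wt (0.32), the light chain gene B2m at 2565 CPM in Lcn2-ko and 2103 CPM in wt (0.29) and the peptide transporter gene Tap1 at 168 CPM in Lcn2-ko and 128 CPM in wt (0.40). The median was 0.15 in collagen-high cells, 0.14 in cycling cells and 0.07 in the other kept cells. H2 genes are alike in sequence, and reads may be divided among them. MHC class II genes stood at 654 CPM in Lcn2-ko and 473 CPM in wt (H2-Ab1), 631 CPM in Lcn2-ko and 430.1 CPM in wt (H2-Aa) and 622 CPM in Lcn2-ko and 449 CPM in wt (Cd74), while in the other kept cells they stood at 3326 in Lcn2-ko and 3951 in wt, 2287 in Lcn2-ko and 2576 in wt and 2465 CPM in Lcn2-ko and 2976 CPM in wt, so that the wt library was the higher for each. The part of free RNA from other cells in these levels was not tested.

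Type I interferon response genes had a median log2 ratio of 0.22, with 10 of 14 above 0 and Rsad2 past 1.5-fold. They went both ways, with Ifit1, which binds viral RNA, at 132 CPM in Lcn2-ko and 99.02 CPM in wt (0.41) and the ubiquitin-like Isg15 at 52.9 CPM in Lcn2-ko and 73.2 CPM in wt (-0.47). Of 16 measured chemokines and cytokines, 10 were above 0, 3 stood 1.5-fold above and 1 as far below, with a median of 0.16. Those above were Cxcl9, Il6 and the membrane-bound chemokine Cxcl16 (61.1 CPM in Lcn2-ko and 39.4 CPM in wt). Ccl2, which draws monocytes, stood at 1263 CPM in Lcn2-ko and 937 CPM in wt and Cxcl1, which draws neutrophils, at 1429 CPM in Lcn2-ko and 1111 CPM in wt. The one below was Il1b, a cytokine of inflammasome-active cells, at 50.01 CPM in Lcn2-ko and 88.7 CPM in wt, and 5 cells held 26.7% of its UMIs in Lcn2-ko and 65.6% in wt.

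Nos2 (chr11:78920787-78960254, plus strand) had 3551 UMIs in the library labelled Lcn2-ko (exact Poisson interval 3435 to 3669.8) and 2475 in the wt library (2378 to 2574), a log2 ratio of 0.62 (0.54 to 0.69). Its UMIs lay in 269 cells in Lcn2-ko and 245 cells in wt, and 5 cells held 12.9% in Lcn2-ko and 12.7% in wt. Among the 14 measured NF-kB subunits and targets, whose median was 0.08, and the 6 of arginine and polyamine metabolism, whose median was -0.09, only Nos2 stood 1.5-fold above. As far below stood 1 of the NF-kB genes and 0 of the arginine and polyamine genes. The library labelled Lcn2-ko was also the higher for Nos2 in the other classes, whose levels are given above. Sox9 had a log2 ratio of -0.23 (-0.27 to -0.19), Ereg one of 0.17 (-0.01 to 0.35) and Tm4sf1 one of 0.03 (-0.02 to 0.08).

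All 10 measured genes of the Nrf2 and glutathione list had log2 ratios above 0, with a median of 0.15 and 0 past 1.5-fold. Hmox1, heme oxygenase, led it at 441 CPM in Lcn2-ko and 314 CPM in wt (0.49), followed by Mgst1, a glutathione transferase, at 604 CPM in Lcn2-ko and 433 CPM in wt (0.48). In collagen-high cells 6 of these genes were above 0 with a median of 0.02, in cycling cells 6 with one of 0.05, and in the other kept cells 8 with one of 0.17. Hypoxia and glycolysis genes had a median of 0.05 with 12 of 19 above 0, and collagen genes one of 0.07 with 9 of 16. These 16 include Col1a1, whose level the limits capped. The 26 measured genes of adhesion and invasion had a median of -0.02, with Mmp3, a matrix metalloprotease, past 1.5-fold lower at 30.8 CPM in Lcn2-ko and 53.6 CPM in wt. The 12 measured lineage regulators had a median of -0.13 with 3 above 0, and the 9 of the epidermal growth factor list one of -0.10 with 4 above 0.
Heat shock chaperones, which stress and handling raise, had a median of -0.05 in the class, with 4 of 10 above 0. The same genes had a median of -0.33 in collagen-high cells, -0.10 in cycling cells and -0.47 in the other kept cells. Medians in the class were -0.10 for 5 epithelial keratin and adhesion genes, -0.03 for 8 mesenchymal genes, -0.01 for 10 laminins and other matrix genes and 0.08 for 19 immediate-early genes. They were -0.13 for 5 YAP and TEAD targets, -0.04 for 13 genes of G1, S phase and arrest, 0.02 for 8 checkpoint ligands and 0.03 for 8 genes of iron handling. The 5 epithelial genes include Krt8 and Krt18, which are among the genes that chose the cells.

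**Figure D3:**
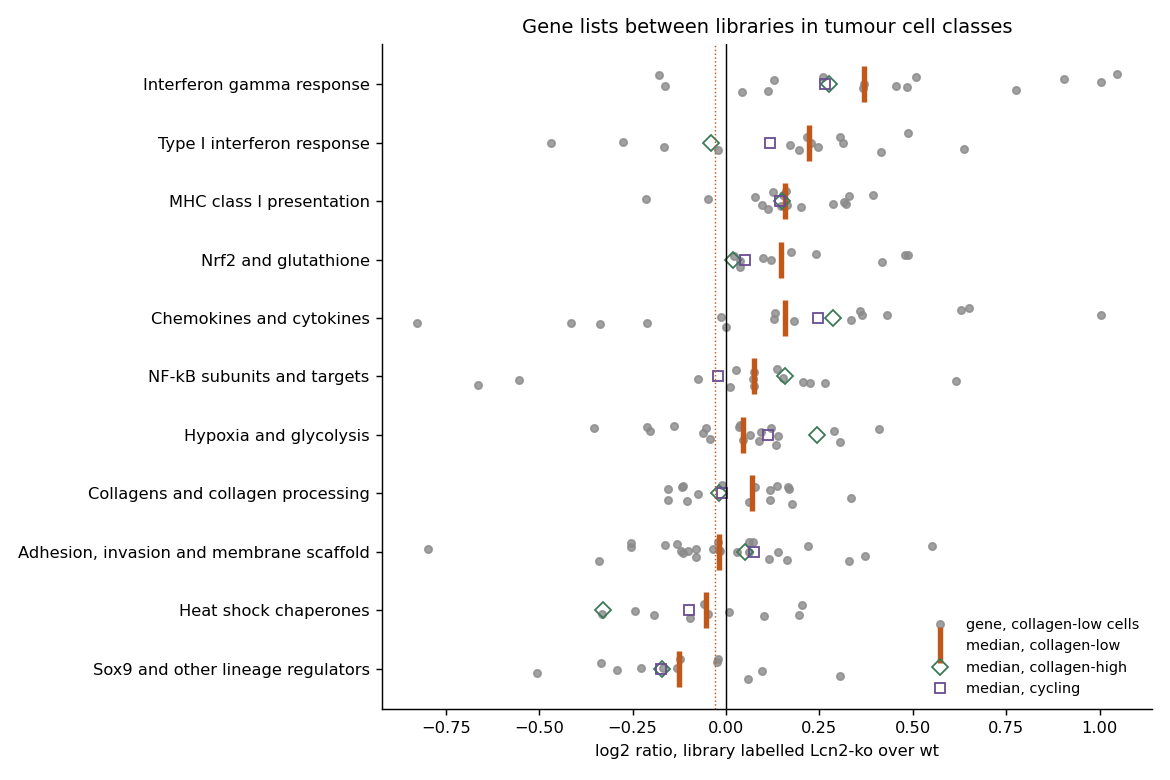
Log2 ratio of the library labelled Lcn2-ko over the wt library for genes of 11 lists. Grey points are genes in collagen-low cells, bars their median, and open symbols the medians of the same genes in collagen-high and cycling cells, with a dotted line at the median of all measured genes, -0.03. The interferon gamma list has the highest median in collagen-low cells, 0.37.

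Set against collagen-high cells of the same library, the class was described gene by gene with no test, since the limits divide these cells on a measured gene. A level written as "against collagen-high" is that of collagen-high cells of the same library, and "against cycling" likewise that of its cycling cells. Among 3731 measured genes, 14 genes (0.375%) stood 2-fold or more above collagen-high cells in both libraries and 12 genes (0.322%) as far below. The genes below include Col1a1 itself, whose gap the limits fix. At 1.5-fold, 63 genes (1.69%) stood above and 76 genes (2.04%) below. The median log2 ratio of all of them was -0.03 in Lcn2-ko and -0.04 in wt. How many of all measured genes lay above or below 0 in both libraries was not counted. Counts of list members on either side of 0 therefore lack that background.

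Most collagens were lower together with Col1a1. Of 17 measured genes of the collagen list besides Col1a1, 14 were below 0 in both libraries, 6 of them by 1.5-fold or more, and the medians were -0.34 in Lcn2-ko and -0.51 in wt. Col3a1, a fibrillar collagen, stood at 559.7 against collagen-high 1193 CPM in Lcn2-ko and 608 against collagen-high 1163 CPM in wt. Of the microfibrillar collagen VI, Col6a1 stood at 2369 against collagen-high 4476 CPM in Lcn2-ko and 2111 against collagen-high 4038 CPM in wt and Col6a2 at 1478 against collagen-high 3029 CPM in Lcn2-ko and 1361 against collagen-high 2717 CPM in wt. The basement membrane collagen Col4a1 stood at 693 against collagen-high 836 CPM in Lcn2-ko and 616 against collagen-high 917 CPM in wt. P4ha1, an enzyme that hydroxylates collagen and is raised at low oxygen, went the other way at 351 against collagen-high 245 CPM in Lcn2-ko and 369 against collagen-high 254 CPM in wt.
Col1a2 had the lowest ratio, with 3 UMIs for Lcn2-ko and 5 UMIs for wt in the class against 404 UMIs for Lcn2-ko and 260 UMIs for wt in collagen-high cells. In collagen-high cells, 4 cells of each library held 401 of them in Lcn2-ko and 260 in wt, so the gap did not describe the classes at large, and Col1a1, with 13936 UMIs for Lcn2-ko and 16000 UMIs for wt in the class, was read almost without Col1a2. Saa3, an acute-phase protein gene, likewise had 73 of its 76 UMIs of collagen-high cells in 3 cells of Lcn2-ko and 219 of 221 in 2 cells of wt. The other 10 lowest included the matrix proteoglycan gene Ogn at 6.98 against collagen-high 44.8 CPM in Lcn2-ko and 9.79 against collagen-high 77.4 CPM in wt, the olfactomedin-like matrix gene Olfml2b at 220.4 against collagen-high 506 CPM in Lcn2-ko and 233 against collagen-high 496 CPM in wt and the growth factor gene Tgfb3 at 50.3 against collagen-high 114 CPM in Lcn2-ko and 54.4 against collagen-high 110.2 CPM in wt. The remaining ones were Serpina6, Rflnb, Adamts8, Pdgfrl, Map1lc3a and Islr, beside Col6a2. Of the Ogn UMIs in collagen-high cells, 56 of 111 lay in 5 cells of Lcn2-ko and 109 of 220 in 11 cells of wt. For Serpina6, 155 of 223 lay in 19 cells of Lcn2-ko and 89 of 219 in 8 cells of wt.

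Hypoxia and glycolysis genes were mostly higher in the class. Of 19 measured, 16 were above 0 and 0 below 0 in both libraries, 7 stood 1.5-fold above in both, and the medians were 0.53 in Lcn2-ko and 0.57 in wt. Ero1l (chr14:45283087-45318771, minus strand), an oxidase of disulphide formation that hypoxia raises, stood at 1761 against collagen-high 821 CPM in Lcn2-ko and 1706 against collagen-high 663 CPM in wt. Slc2a1, the glucose transporter GLUT1, stood at 594 against collagen-high 285 CPM in Lcn2-ko and 617 against collagen-high 287 CPM in wt. The glycolytic kinase gene Pgk1 stood at 1471 against collagen-high 871 CPM in Lcn2-ko and 1384 against collagen-high 734 CPM in wt, and the lactate dehydrogenase gene Ldha at 818 against collagen-high 517 CPM in Lcn2-ko and 766 against collagen-high 496 CPM in wt. Bnip3, a mitophagy receptor, stood at 379.7 against collagen-high 225 CPM in Lcn2-ko and 346 against collagen-high 189 CPM in wt. The pyruvate dehydrogenase kinase gene Pdk1 (50.9 against collagen-high 54.5 CPM in Lcn2-ko and 53.05 against collagen-high 52.1 CPM in wt) and the hexokinase gene Hk2 (523 against collagen-high 526 CPM in Lcn2-ko and 539 against collagen-high 487 CPM in wt) were near equal. Hilpda, a lipid droplet gene raised at low oxygen, was among the 12 highest at 202 against collagen-high 94.1 CPM in Lcn2-ko and 185 against collagen-high 73.6 CPM in wt.

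Iron and antioxidant genes mostly stood higher as well. The 8 measured genes of iron handling had medians of 0.85 in Lcn2-ko and 0.61 in wt, with 4 standing 1.5-fold above in both libraries. Of the 8, 6 were above 0 and 1 below 0 in both. Hmox1 is on both the iron list and the Nrf2 and glutathione list. Fth1 stood at 7535 against collagen-high 4242 CPM in Lcn2-ko and 5924 against collagen-high 3481 CPM in wt, Ftl1 (ferritin light chain) at 318 against collagen-high 168 CPM in Lcn2-ko and 336 against collagen-high 197 CPM in wt, and Hmox1 at 441 against collagen-high 148 CPM in Lcn2-ko and 314 against collagen-high 168 CPM in wt. Ferritin genes have near-identical copies among which reads may be divided. Lcn2 stood at 54.4 against collagen-high 29.9 CPM in Lcn2-ko and 32.6 against collagen-high 20.1 CPM in wt. In the Nrf2 and glutathione list 9 of 10 were above 0 in both, 3 of them by 1.5-fold or more, with medians of 0.36 in Lcn2-ko and 0.28 in wt, and the peroxidase gene Prdx1 stood at 1445 against collagen-high 761 CPM in Lcn2-ko and 1281 against collagen-high 713 CPM in wt.

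Type I interferon genes had medians of 0.78 in Lcn2-ko and 0.54 in wt over collagen-high cells. Of 14 measured, 10 were above 0 in both libraries and 4 stood 1.5-fold above in both. Ifit1 stood at 132 against collagen-high 69.5 CPM in Lcn2-ko and 99.02 against collagen-high 49.6 CPM in wt, Ifit3 at 176 against collagen-high 91.7 CPM in Lcn2-ko and 142 against collagen-high 68.6 CPM in wt, and Isg15 at 52.9 against collagen-high 21.8 CPM in Lcn2-ko and 73.2 against collagen-high 38.7 CPM in wt. Ifit3 UMIs lay in 155 cells of the class in Lcn2-ko and 126 cells in wt, with 24.9% of them in Lcn2-ko and 20.5% in wt in 5 cells. The RNA sensors Ddx58 (79.96 against collagen-high 94.1 CPM in Lcn2-ko and 96.8 against collagen-high 97.5 CPM in wt) and Ifih1 (62.5 against collagen-high 69.5 CPM in Lcn2-ko and 63.4 against collagen-high 65.5 CPM in wt) were the 2 below 0 in both. The interferon gamma list had medians of -0.13 in Lcn2-ko and -0.27 in wt, and MHC class I genes of -0.21 in Lcn2-ko and -0.21 in wt with 14 of 16 below 0 in both, so neither stood above collagen-high cells.

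**Figure D4:**
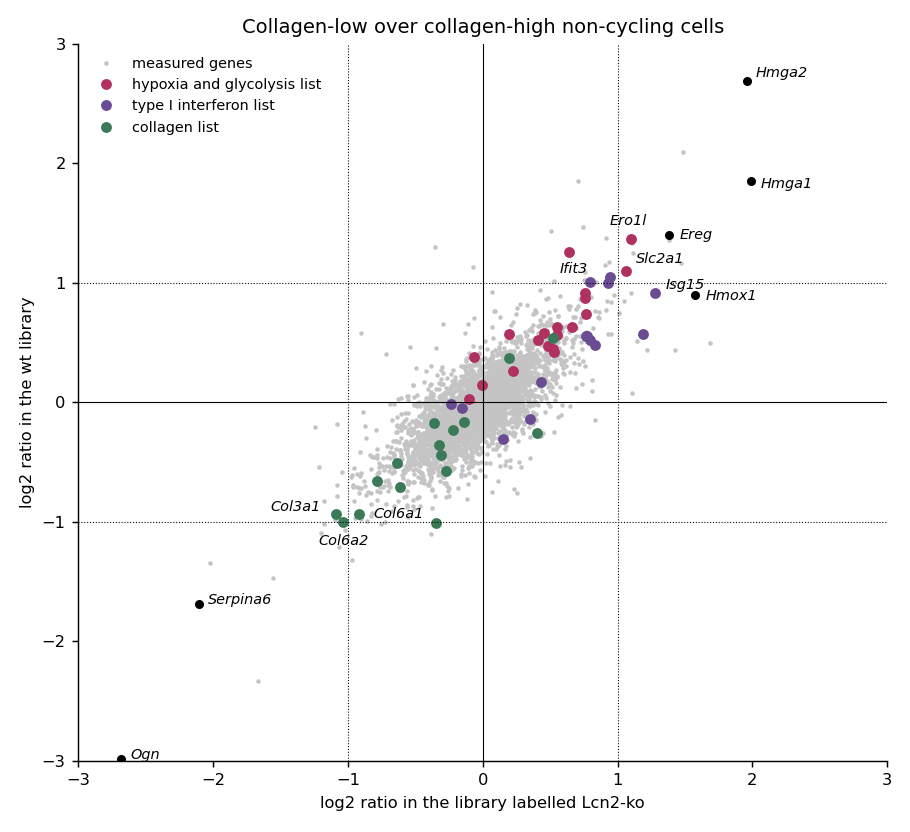
Log2 ratio of collagen-low over collagen-high non-cycling cells in the library labelled Lcn2-ko and in the wt library, 1 point per gene, with dotted lines at 2-fold. Most genes of the hypoxia and glycolysis list lie above 0 and most of the collagen list below 0 on both axes, and 5 of 3731 genes (Fgb, Trf, Itih2, Col1a2 and Saa3) fall outside the axes.

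Growth factor and invasion genes varied gene by gene. Ereg had log2 ratios of 1.38 in Lcn2-ko and 1.40 in wt, and Dusp4, a MAP kinase phosphatase that receptor signalling raises, stood at 199 against collagen-high 96.2 CPM in Lcn2-ko and 238 against collagen-high 111 CPM in wt. The ligand Hbegf (830.1 against collagen-high 815 CPM in Lcn2-ko and 799 against collagen-high 826 CPM in wt) and the feedback gene Errfi1 (511 against collagen-high 563 CPM in Lcn2-ko and 557 against collagen-high 635 CPM in wt) were near equal. In the epidermal growth factor list 5 of 9 were above 0 in both, with medians of 0.37 in Lcn2-ko and 0.20 in wt. Inhba, a subunit of activin, stood at 1012 against collagen-high 467 CPM in Lcn2-ko and 1150.2 against collagen-high 484 CPM in wt, and the collagenase gene Mmp13 at 72.7 against collagen-high 27.9 CPM in Lcn2-ko and 91.9 against collagen-high 35.9 CPM in wt. Lgals3 stood at 6724 against collagen-high 3952 CPM in Lcn2-ko and 6102 against collagen-high 3173 CPM in wt. By contrast the gelatinase gene Mmp9 stood at 359 against collagen-high 545 CPM in Lcn2-ko and 428 against collagen-high 595 CPM in wt, and the plasminogen activator gene Plau at 463 against collagen-high 648 CPM in Lcn2-ko and 497 against collagen-high 661 CPM in wt.
The chromatin proteins Hmga2 (92.8 against collagen-high 23.8 CPM in Lcn2-ko and 75.1 against collagen-high 11.6 CPM in wt) and Hmga1 (51.5 against collagen-high 12.9 CPM in Lcn2-ko and 52.2 against collagen-high 14.4 CPM in wt) were among the 12 highest, while the 13 measured lineage regulators that include them had medians of -0.07 in Lcn2-ko and 0.01 in wt. Esd, an esterase, stood at 423 against collagen-high 152 CPM in Lcn2-ko and 331 against collagen-high 147 CPM in wt. Klra4, also among the 12, belongs to a family of near-identical receptor genes, and its reads may be divided among them. Nos2 had log2 ratios of 0.84 in Lcn2-ko and 1.00 in wt.
Within the remaining lists, chemokines and cytokines had medians of 0.06 in Lcn2-ko and 0.27 in wt, arginine and polyamine genes 0.25 in Lcn2-ko and 0.26 in wt, adhesion and invasion genes 0.23 in Lcn2-ko and 0.27 in wt, immediate-early genes -0.17 in Lcn2-ko and -0.16 in wt, heat shock chaperones 0.42 in Lcn2-ko and 0.06 in wt and genes of G1, S phase and arrest 0.13 in Lcn2-ko and 0.15 in wt. Of the 14 NF-kB genes, 4 were above and 7 below 0 in both libraries. Mesenchymal genes had medians of 0.07 in Lcn2-ko and -0.08 in wt, laminins and other matrix genes of 0.04 in Lcn2-ko and 0.04 in wt, epithelial genes of 0.17 in Lcn2-ko and 0.18 in wt, YAP and TEAD targets of 0.18 in Lcn2-ko and -0.22 in wt and checkpoint ligands of 0.01 in Lcn2-ko and -0.15 in wt. The epithelial medians rest on 3 genes besides Krt8 and Krt18. Of these 3, 1 stood 1.5-fold above and 1 as far below in both libraries.

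A few cells accounted for the highest ratio of all, that of Fgb. Fgb (chr3:83040141-83049863, minus strand), the beta chain of fibrinogen, stood at 171 against collagen-high 0.808 CPM in Lcn2-ko and 273 against collagen-high 1.76 CPM in wt, but 8 cells of Lcn2-ko accounted for 582 of its 588 UMIs and 9 cells of wt for 993 of its 1004. These cells, picked by an Fgb count of at least 5 UMIs after it was seen, had 23 of 81 Itih2 UMIs in Lcn2-ko and 82 of 185 in wt and 14 of 141 Trf UMIs of the class in Lcn2-ko and 527 of 934 in wt. Their Krt18 level was 802 CPM in Lcn2-ko and 896 CPM in wt against 558 CPM for Lcn2-ko and 596 CPM for wt in the rest of the class, and their Sox9 level 2158 CPM in Lcn2-ko and 2277 CPM in wt against 2606 CPM for Lcn2-ko and 3062 CPM for wt in that rest. Without them, the log2 ratio of Trf between libraries was -1.60, and Fgb had log2 ratios over collagen-high cells of 1.13 in Lcn2-ko and 0.80 in wt. Over 14 alternative settings, which include this one, the lowest Trf ratios over collagen-high cells were 1.81 in Lcn2-ko and 3.01 in wt. For Itih2 the lowest were 1.78 in Lcn2-ko and 2.66 in wt. In the rest of the class Itih2 stood at 17.1 CPM in Lcn2-ko and 28.8 CPM in wt, below the limit of 50 CPM.

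Against cycling cells the gap was wide, and the division genes themselves are set by the limits. Of 3919 measured genes, 94 genes (2.4%) stood 2-fold or more above cycling cells in both libraries and 215 genes (5.49%) as far below. At 1.5-fold, 358 genes (9.13%) stood above and 481 genes (12.3%) below. The 12 lowest were all genes of cell division, from Ccna2, a cyclin, at 3.20 against cycling 335 CPM in Lcn2-ko and 5.17 against cycling 351 CPM in wt, to Kif11, a spindle motor, at 2.33 against cycling 61.8 CPM in Lcn2-ko and 1.90 against cycling 67.7 CPM in wt. Genes of G1, S phase and arrest had medians of -0.74 in Lcn2-ko and -0.63 in wt with 9 of 18 standing 1.5-fold below in both, and the replication helicase gene Mcm6 stood at 84.6 against cycling 234 CPM in Lcn2-ko and 94.7 against cycling 258 CPM in wt.
The 12 highest held Abca1, which exports cholesterol, at 144 against cycling 21.96 CPM in Lcn2-ko and 134 against cycling 25.7 CPM in wt, and Fbxo32, a ubiquitin ligase subunit of muscle atrophy, at 92.8 against cycling 12.5 CPM in Lcn2-ko and 68.8 against cycling 13.5 CPM in wt. Complement C3 stood at 802 against cycling 208 CPM in Lcn2-ko and 681 against cycling 146 CPM in wt, and Il6 at 72.1 against cycling 16.6 CPM in Lcn2-ko and 45.97 against cycling 10.5 CPM in wt. The Il6 log2 ratios of 2.12 in Lcn2-ko and 2.13 in wt were lower under some limits, at 0.74 in Lcn2-ko with T cell and C1q sums of 0 and 1.09 in wt with a Col1a1 limit of 0.5%. With those sums of 0, and also without the cell richest in each gene, Il6 was no longer counted as 2-fold above cycling cells in both libraries. Slfn5, Crebrf, Kdm7a, Col15a1, Medag and Orm2 were the others, beside Lcn2, with log2 ratios of 2.53 in Lcn2-ko and 1.70 in wt, and Inhba, with 1.70 in Lcn2-ko and 1.97 in wt.
Among the lists, epidermal growth factor genes had medians of 0.60 in Lcn2-ko and 0.78 in wt with 9 of 9 above 0 in both, collagens 0.57 in Lcn2-ko and 0.41 in wt with 13 of 15, and lineage regulators 0.45 in Lcn2-ko and 0.40 in wt with 12 of 12. Hypoxia and glycolysis genes had medians of 0.48 in Lcn2-ko and 0.39 in wt with 17 of 19 above 0 in both. Iron handling had 0.82 in Lcn2-ko and 0.69 in wt, with 5 of 8 genes above 0 and 3 below 0 in both. Type I interferon genes had 0.50 in Lcn2-ko and 0.46 in wt, with 11 of 14 above 0 and 1 below 0 in both. MHC class I genes had -0.15 in Lcn2-ko and -0.10 in wt, with 7 of 16 above 0 and 9 below 0 in both. Over all measured genes the medians were -0.06 in Lcn2-ko and -0.05 in wt. How many of them lay above or below 0 in both libraries was not counted here either. Cycling cells were read at a greater depth per cell, as given above. With each cell thinned to 2000 UMIs, 108 genes stood 2-fold above cycling cells in both libraries, and 75 of the 94 were among them. As far below stood 233 genes, and 201 of the 215 were among them. Beyond this, the part of depth in these ratios was not tested.

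Cells of the class varied among themselves. The 12 genes with the largest ratio of variance to mean after thinning included Fgb, Malat1, Fos, Thbs1, Fth1, Sprr1a, Actg1, Cxcl1, Lgals3, Ptgs2 and Fn1, against a median ratio of 1.08 in either library over 3099 genes. Lgals3 had ratios of 7.66 in Lcn2-ko and 9.65 in wt and the keratinocyte envelope gene Sprr1a of 8.91 in Lcn2-ko and 12.5 in wt. For Sprr1a the 10% of cells with the most held 67.5% of its UMIs in Lcn2-ko and 64.6% in wt, and for the prostaglandin synthase gene Ptgs2 59.1% in Lcn2-ko and 68.4% in wt. Per thinned cell, Lgals3 had a median of 10 UMIs in the library labelled Lcn2-ko (quartiles 6 and 18) and 9 in the wt library (quartiles 4 and 17). Ero1l had a median of 1 UMI in both, with 33.3% of cells in Lcn2-ko and 34.6% in wt at 0.

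**Figure D5:**
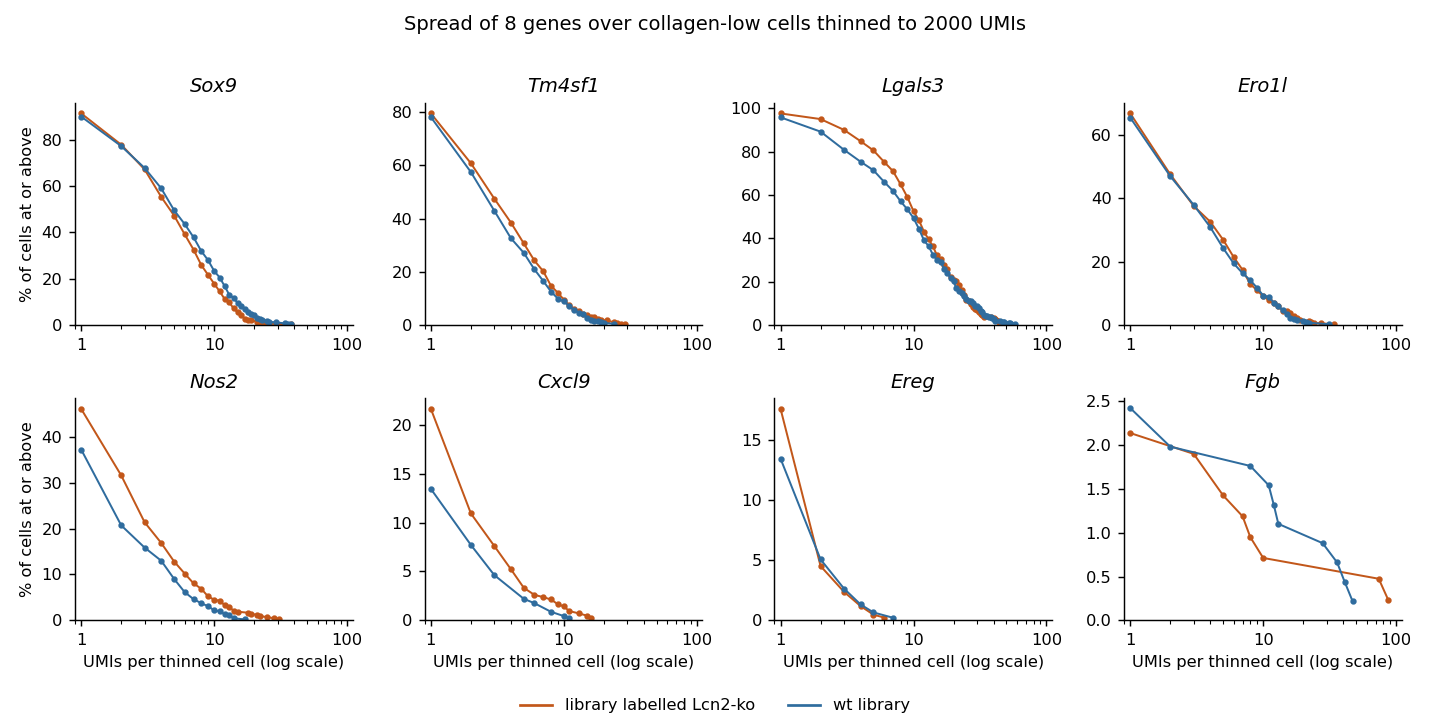
Share of collagen-low non-cycling cells (%) at or above each number of UMIs, per gene and library, after thinning each cell to 2000 UMIs (421 cells of the library labelled Lcn2-ko and 454 of the wt library, log horizontal axis). At 1 UMI the shares were 46.1% in Lcn2-ko and 37.2% in wt for Nos2, 21.6% in Lcn2-ko and 13.4% in wt for Cxcl9 and 2.14% in Lcn2-ko and 2.42% in wt for Fgb.

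Across cells of the class within a library, Spearman correlations after thinning were taken among the 12 most variable genes and 10 others, as descriptions over cells of 1 library each, with 421 cells in Lcn2-ko and 454 cells in wt. Ranked by the lower of both libraries, the highest was that of Lgals3 with Ero1l (0.49 in Lcn2-ko and 0.52 in wt), followed by Slc2a1 with Ero1l (0.46 in Lcn2-ko and 0.42 in wt), Fth1 with Hmox1 (0.38 in Lcn2-ko and 0.35 in wt), Nos2 with Ero1l (0.33 in Lcn2-ko and 0.37 in wt) and Actg1 with Lgals3 (0.36 in Lcn2-ko and 0.31 in wt). Cxcl9 with Gbp2 had 0.36 in Lcn2-ko and 0.26 in wt. Genes counted in the same thinned total compete for UMIs, and all cells of a library share its preparation.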

How the data were processed

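The library of each cell came from the sample's own file and its genotype label. Members and gene lists were chosen with earlier results of these data known. The deposited matrices hold raw counts, the UMIs of each gene in each cell, with no normalization. Cell Ranger and build mm10 are named, per the submitters' processing notes, without version or role. From the counts, cells were classed by the limits given above, UMIs were summed per class and library, and CPM computed. Doublets were not removed; Scrublet scores (scanpy 1.11.5, expected rate 0.06) served an alternative that leaves out the highest 4% of cells. Measured genes leave out Y-linked genes, Xist, mitochondrial, ribosomal protein, immunoglobulin, T cell receptor, haemoglobin and predicted genes. Named were the 12 highest and 12 lowest ratios per comparison (for classes, by the smaller ratio of both libraries), up to 4 genes per list, the 12 most variable and the 12 most abundant; further list members were named after their values were seen. Some genes that these rules pick are not reported here. A 0 in a ratio was read as 3 counts. Intervals were exact Poisson, Clopper-Pearson, Newcombe or conditional binomial (scipy 1.17.1), and the ratio step was tested on simulated data. Gene positions came from GENCODE M21.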

Additional observations from a re-analysis of the deposited data

How the results depend on the processing

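No paired analysis was possible because each label has 1 library. The share of kept cells in the class was 5.62% in Lcn2-ko and 6.02% in wt. It was 3.54% in Lcn2-ko and 3.45% in wt with a Col1a1 limit of 0.5%, 7.29% in Lcn2-ko and 7.81% in wt with 1%, and 4.44% in Lcn2-ko and 4.77% in wt with at least 20 keratin and collagen UMIs. It was 4.73% in Lcn2-ko and 4.91% in wt with a division gene limit of 2 UMIs, and 3.62% in Lcn2-ko and 3.95% in wt where T cell and C1q sums had to be 0. Genes 2-fold above wt numbered 5 with the 0.5% limit, 1 with the mean of CPM per cell and 8 at 20 CPM, against 3 as reported. Genes 2-fold below wt numbered 14 with the 0.5% limit, 4 with 1%, 4 with T cell and C1q sums of 0, 4 with the mean of CPM per cell, 21 at 20 CPM and 4 at 100 CPM, against 8. Over collagen-high cells, 30 genes were higher with the 0.5% limit, 36 at 20 CPM and 9 at 100 CPM, against 14, and 26 were lower at 20 CPM and 6 at 100 CPM, against 12. Over cycling cells, 59 were higher with a division gene limit of 2 UMIs, against 94, and 393 lower at 20 CPM and 125 at 100 CPM, against 215. The limits of 20 and 100 CPM change how many genes are measured; for the other settings the cause was not tested.

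Of 392 ratios of named genes between libraries under the alternatives, 348 stayed within the counting interval of the reported ratio and the others moved outside it. The sign turned in 3 of the 392. Il6 had -0.79 with T cell and C1q sums of 0, and Tm4sf1, reported at 0.03, had -0.13 with the 0.5% limit and lay just below 0 with at least 20 keratin and collagen UMIs. Ubd (0.87 to 1.29), Iigp1 (0.86 to 1.15), Cxcl9 (0.90 to 1.13), Gbp2 (0.65 to 1.05) and Nos2 (0.50 to 0.79) kept their sign in 14 of 14 settings. The ratio of Lcn2 was 1.52 after thinning and that of Itih2 -0.09, Ackr3 had 1.26 with T cell and C1q sums of 0, and Arhgap29 -1.69 with the 0.5% limit. Leaving out cells with 5 or more Fgb UMIs, chosen after seeing the data, gave Trf -1.60. The top 4% of doublet scores held 2 cells of the class in Lcn2-ko and 8 in wt. With 1 library per label, differences between tumours, sorts and library preparations cannot be told apart from the genotype label.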
